A study of Mus musculus with 4 samples.

Results

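The collagen genes of the mouse were followed in the surface layers of the fetal liver, with and without the cell cycle inhibitor p57. Members were all probe sets whose only gene symbol in the platform annotation has the form of a collagen chain (Col, a number, a, a number). The rule took 82 of the 34945 probe sets with 1 symbol, and they belong to 42 of 18193 genes. The rule itself reads names only, and the family was picked with earlier results of these data known. They were grouped as 11 fibrillar, 9 network, 9 FACIT, 5 beaded and 8 other genes. Col6a6 and Col28a1, which the RefSeq gene table also lists, have no probe set under the rule and are not analysed here.

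In total, 4 C57BL/6 samples at embryonic day 17.5 were read on 1 single-colour Affymetrix array each. The 2 p57-/- samples, called Kip2 -/- in the genotype labels, lack the product of Cdkn1c, and the 2 p57+/+ samples are wild type. Mesothelial cells, which form the outer sheet of the liver, and the submesothelial cells beneath them were removed together by surgery. The titles place 1 sample of each genotype in experiment 1 and 1 in experiment 2, without saying what an experiment shared, and the labels do not say whether a sample was an embryo, a pool or a litter. The p-values therefore rest on the spread among these 4 samples alone, which may be technical in part, and 2 arrays per genotype limit the precision.

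Collagens are secreted proteins whose chains wind around each other into a helix built on repeats with glycine at regular positions. Fibrillar collagens such as types I, III and V form the banded fibres of connective tissue, and network collagens such as type IV form the sheet of basement membranes. FACIT collagens sit on the surface of fibres, and type VI collagen makes beaded filaments around cells. In the fetal liver, type I and III collagen are made mainly by mesenchymal cells, and the mesothelium rests on a basement membrane.

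Values are MAS5 signals, a brightness per probe set on a linear scale that had been brought to the same trimmed mean, 500.0, on every array. MAS5 also calls each probe set Present, Marginal or Absent, a call of whether its signal stands above that of mismatched probes. Between 48.5% and 50.1% of an array's probe sets were Present, and across all probe sets that are not controls, pairs of arrays correlated with r = 0.917 to 0.922 on the log2 scale. Cdkn1c, the deleted gene, had signals of 7.79 and 7.28 on the p57-/- arrays, both Absent, against 10255 and 9866 on the p57+/+ arrays (limma adjusted p = 1.8e-08). It was at least 760-fold lower, with the p57-/- arrays taken at their lowest signal called Present. All results compare bulk samples, in which fewer cells of a type and less RNA per cell cannot be told apart.

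Of the 42 collagen genes, 28 (66.7%) were tested, beside 64.1% of all genes. A tested gene had at least 1 probe set Present on at least 2 of the 4 arrays. Among the 28 tested genes, 23 were Present on all 4 arrays, and 14 genes had no tested probe set. Among the 14, no probe set had more than 1 Present call: Col19a1 had 1 in each of 2 probe sets, Col6a4 had 1, and the other 12 had none on any array. These 12 are the fibrillar Col2a1 and Col11a2, the network genes Col4a3, Col8a1 and Col10a1, the FACIT genes Col9a1, Col20a1 and Col22a1, and Col15a1, Col17a1, Col23a1 and Col26a1. Col2a1 and Col10a1, the collagens of cartilage and of its hypertrophic zone, are thus in this set, as is Col17a1, which anchors epithelial cells of the skin. By class, 7 of 11 fibrillar, 5 of 9 network, 5 of 9 FACIT, 3 of 5 beaded and 3 of 8 other genes were Present on all arrays. Over all genes it was 10339 of 18193, and differences in detection between classes were not tested.

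The chains that mark collagen-producing mesenchyme, Col1a1, Col1a2 and Col3a1, were Present on all 4 arrays. Col3a1 had the brightest collagen probe set on every array, with signals of 30594 and 30166 in p57-/- samples, against 24421 and 29083 in p57+/+ samples. Probe sets differ in their response to RNA, so these signals give no order of abundance between genes.

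**Figure D1:**
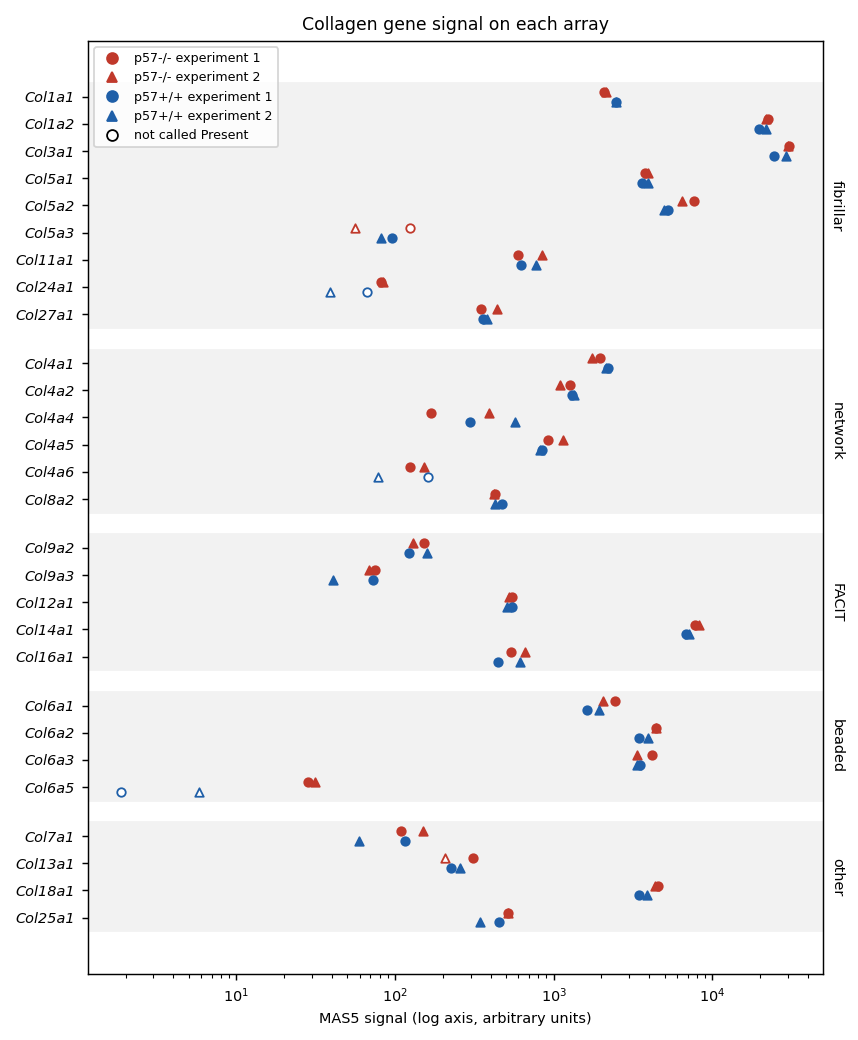
MAS5 signal (log axis, arbitrary units) of the brightest tested probe set of each of the 28 tested collagen genes, by class. Red marks are p57-/- arrays and blue marks p57+/+ arrays, circles experiment 1 and triangles experiment 2, and open marks were not called Present. Most genes have red and blue marks close together, and Col5a2 has both red marks (7664 and 6449) to the right of both blue marks (5219 and 4946).

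No collagen probe set passed the test. Of the 42 tested, 0 were higher and 0 were lower in p57-/- samples at an adjusted p of 0.05 (limma on log2 signals, two-sided, adjusted over 22800 probe sets). Over all probe sets the share called was 0.0% higher and 0.00439% lower, and the 1 lower probe set is that of Cdkn1c. At an unadjusted p under 0.05, 5 of the 42 collagen probe sets were found, beside 7.67% of all probe sets tested. These 5 were both probe sets of Col5a2 and 1 each of Col14a1, Col18a1 and Col6a5. Col6a5 was Present in p57-/- samples only, so it entered the test through the genotype in which it is higher. The lowest adjusted p among collagens was 0.519, for a probe set of Col5a2.

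Among the 23 genes Present on all 4 arrays, 12 (52.2%) were higher in p57-/- than in p57+/+ samples in both experiments, beside 30.1% of all genes Present on all arrays. Another 5 (21.7%) were lower in both experiments, beside 26.3% of all genes, and 6 differed in opposite directions. In 9 genes (39.1%) both p57-/- arrays lay above both p57+/+ arrays, beside 22.1% of all genes, and in 3 genes (13.0%) both lay below, beside 18.8%. The median log2 difference, p57-/- minus p57+/+, was 0.13 over the 23 genes, with 0.13 in experiment 1 and 0.07 in experiment 2. Over the 10339 genes of the background it was 0.02, with 0.03 in experiment 1 and -0.001 in experiment 2. Across all tested probe sets the log2 differences of experiments 1 and 2 correlated only weakly (r = 0.112). Over all 28 tested collagen genes the median was 0.15, and it was 0.07 without the p57+/+ array of experiment 1 and 0.09 over all 42 genes with no filter on calls.

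The class medians had different signs. Of 7 fibrillar genes 4 were higher and 1 lower in both experiments, with a median of 0.09. Network genes had 1 higher and 4 lower of 5, with a median of -0.17 (-0.14 in experiment 1 and -0.29 in experiment 2). FACIT genes had 3 higher and 0 lower of 5, with a median of 0.18, and beaded genes 2 higher and 0 lower of 3, with a median of 0.26. The 3 other genes had 2 higher and 0 lower, with a median of 0.38. The difference between classes was not tested.

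**Figure D2:**
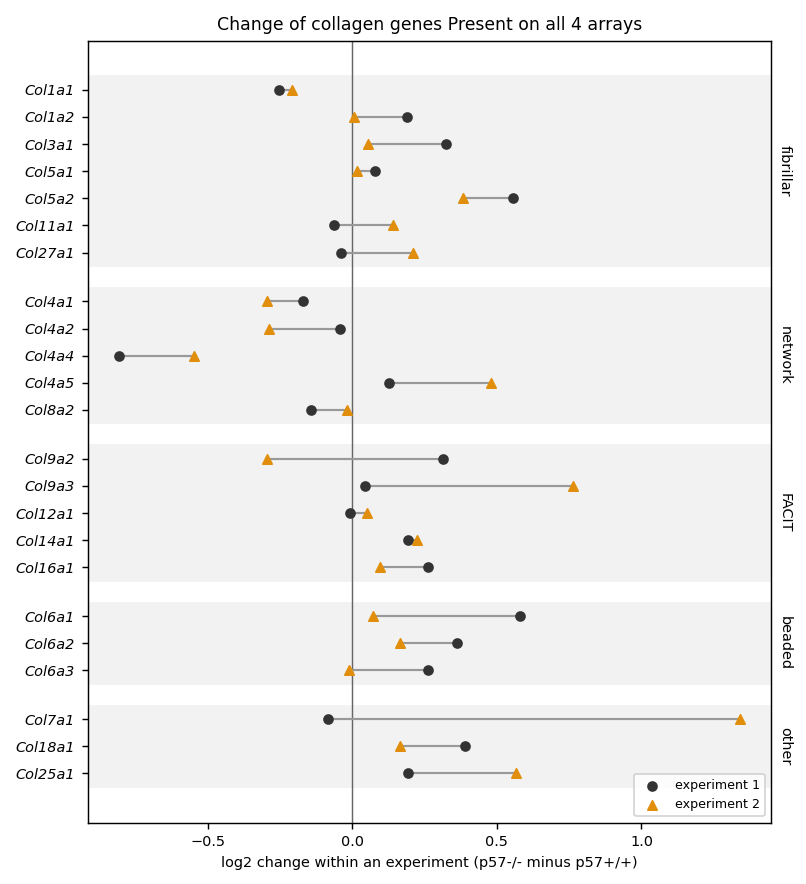
Log2 change (p57-/- minus p57+/+) within experiment 1 (black circles) and experiment 2 (orange triangles) for the 23 collagen genes Present on all 4 arrays, with a line joining the experiments of a gene. In the network class 4 of 5 genes lie left of 0 in both experiments, and Col7a1 has the widest gap between experiments (-0.09 and 1.34).

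Type I collagen, the main fibre of connective tissue, is built from chains encoded by Col1a1 and Col1a2. Col1a1 (probe set 1455494_at) had signals of 2071 and 2134 in p57-/- samples, against 2469 and 2465 in p57+/+ samples. Both p57-/- arrays were below both p57+/+ arrays, and the log2 difference was -0.23 (SE 0.12, limma adjusted p = 0.681), with -0.25 and -0.21 in the experiments. Its other tested probe set, 1423669_at, had 767 and 626 in p57-/- samples, against 711 and 799 in p57+/+ samples, which overlap. Col1a2 (1450857_a_at) had 22472 and 21958 in p57-/- samples, against 19710.1 and 21874 in p57+/+ samples. These do not overlap, yet the gap in experiment 2 was 0.01 on the log2 scale, against 0.19 in experiment 1, and the mean difference was 0.10 (SE 0.11, limma adjusted p = 0.848). Its other tested probe sets gave 0.01 and -0.30, and with the mean of all its probe sets the sign turned, to -0.06.

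Col3a1, the chain of type III collagen that shares fibres with type I, had a log2 difference of 0.19 (SE 0.12, limma adjusted p = 0.718), 0.33 in experiment 1 and 0.05 in experiment 2. The mean signal was 30380 ± 303 in p57-/- samples and 26752 ± 3297 in p57+/+ samples (SD, n = 2 each). The groups did not overlap, and the p57+/+ array of experiment 1, at 24421, was the dimmest. The other Col3a1 probe set, 1427884_at, differed by 0.14 with overlapping groups.

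The starts of Col1a2 and Col3a1 are shown because these genes had the brightest collagen probe sets and neither passed the test. The sequences are RefSeq promoter windows of build GRCm38.p6, from 250 bases before to 50 bases after the annotated start, at chr6:4505368-4505667 (plus strand) for Col1a2 and chr1:45311288-45311587 (plus strand) for Col3a1. Capitals mark 3 motifs found on either strand. The CCAAT box was searched as CCAAT. The GC box was searched as GGGCGG, in its plain form without flanking letters. The TATA box was searched as TATAAA.
Col1a2: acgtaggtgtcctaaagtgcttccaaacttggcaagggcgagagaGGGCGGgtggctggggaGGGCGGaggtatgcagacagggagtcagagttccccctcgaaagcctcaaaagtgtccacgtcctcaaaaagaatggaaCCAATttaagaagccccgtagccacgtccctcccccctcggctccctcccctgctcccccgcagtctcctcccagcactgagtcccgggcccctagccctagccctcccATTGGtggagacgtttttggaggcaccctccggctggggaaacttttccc
Col3a1: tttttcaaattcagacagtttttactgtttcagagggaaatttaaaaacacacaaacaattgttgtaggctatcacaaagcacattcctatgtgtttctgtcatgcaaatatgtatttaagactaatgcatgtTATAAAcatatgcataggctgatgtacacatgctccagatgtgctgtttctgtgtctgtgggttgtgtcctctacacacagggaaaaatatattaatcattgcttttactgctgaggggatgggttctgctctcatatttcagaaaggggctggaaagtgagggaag
The Col1a2 window holds 2 CCAAT and 2 GGGCGG matches, and the Col3a1 window holds 1 TATAAA match. A promoter was found in the table for 33 of the 42 collagen genes, with 36 windows. CCAAT was in 36.1% of these windows, beside 37.4% of all 32851 promoters. GGGCGG was in 61.1%, beside 35.7%, and TATAAA in 13.9%, beside 13.6%. The 3 motifs share no letters where they were found, and a match describes the letters only.

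Col5a2 had the largest difference among the 7 fibrillar genes Present on all arrays. It encodes a chain of type V collagen, a minor partner of type I fibres that sets their diameter. Probe set 1422437_at had signals of 7664 and 6449 in p57-/- samples, against 5219 and 4946 in p57+/+ samples, with means of 7056.5 ± 859 and 5082.5 ± 192.5 (SD, n = 2 each). Every p57-/- array was above every p57+/+ array, the log2 difference was 0.47 (SE 0.13, limma adjusted p = 0.549), and the experiments gave 0.55 and 0.38. Probe set 1450625_at had 3581 and 3141 in p57-/- samples, against 2339.7 and 2293 in p57+/+ samples. It differed by 0.53 (SE 0.13, limma adjusted p = 0.519), with 0.61 and 0.45 in the experiments, so both probe sets gave like values. Col3a1 and Col5a2 are neighbours on chromosome 1 in the RefSeq gene order of GRCm38.p6, and their differences were 0.19 and 0.47.

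Col5a1, whose chain pairs with that of Col5a2, had 3792 and 3950.5 in p57-/- samples, against 3595 and 3909 in p57+/+ samples. Its difference was 0.05 (SE 0.12, limma adjusted p = 0.94), and its other probe sets gave 0.08 and 0.23. Col11a1, a chain of type XI collagen that nucleates fibres, had 599.5 and 847 in p57-/- samples, against 627 and 769.6 in p57+/+ samples, a difference of 0.04. Col27a1, a fibrillar collagen best known from cartilage, had 351 and 439.8 in p57-/- samples, against 360.3 and 379.9 in p57+/+ samples. The last 3 genes overlapped between genotypes, and the sign turned between experiments for Col11a1 and Col27a1. A second Col27a1 probe set, 1453191_at, had 761 and 939 in p57-/- samples, against 989 and 1161 in p57+/+ samples, and was nevertheless Absent on all 4 arrays and not tested.

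The other 2 tested fibrillar genes were each Absent on both arrays of 1 genotype. Col24a1 had 81.5 and 83.6 in p57-/- samples, both Present, against 66.7 and 39.1 in p57+/+ samples, both Absent, a log2 difference of 0.69 (SE 0.43, limma adjusted p = 0.727), with 0.29 and 1.10 in the experiments. Without the p57+/+ array of experiment 2 it was 0.31. Col5a3 was Absent in both p57-/- samples, at 124 and 56.0, against 95.0 and 81.1 in p57+/+ samples, which overlap. Its log2 difference was -0.08 (SE 0.43, limma adjusted p = 0.976), with 0.39 and -0.54 in the experiments, while the linear means were 90.1 in p57-/- samples and 88.1 in p57+/+ samples, so no direction is given. No fold is given for either, since the Absent signals were above the lowest signal called Present on their arrays and are not known to be measured. Such genes entered the test through 1 genotype, and the counts of directions above leave them out, while the median over 28 genes holds them.

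Type IV collagen forms the mesh of basement membranes, and in most tissues it is made of the chains of Col4a1 and Col4a2. Col4a1 (1452035_at) had 1945 and 1741 in p57-/- samples, against 2191 and 2139.8 in p57+/+ samples. Col4a2 (1424051_at) had 1276.5 and 1097 in p57-/- samples, against 1314 and 1339 in p57+/+ samples. In both genes every p57-/- array was below every p57+/+ array. The log2 difference was -0.23 for Col4a1 (SE 0.13, limma adjusted p = 0.698) and -0.17 for Col4a2 (SE 0.15, limma adjusted p = 0.801). Experiment 1 gave -0.17 and -0.04, and experiment 2 gave -0.30 and -0.29 for Col4a1 and Col4a2. The other Col4a1 probe set, 1426348_at, gave -0.03 with overlapping groups.

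Col4a1 and Col4a2 are neighbours on chromosome 8, on opposite strands, and their promoter windows are shown because their differences ran the same way. The windows are chr8:11312777-11313076 (minus strand) and chr8:11312555-11312854 (plus strand) in GRCm38.p6, from RefSeq, with capitals as above.
Col4a1: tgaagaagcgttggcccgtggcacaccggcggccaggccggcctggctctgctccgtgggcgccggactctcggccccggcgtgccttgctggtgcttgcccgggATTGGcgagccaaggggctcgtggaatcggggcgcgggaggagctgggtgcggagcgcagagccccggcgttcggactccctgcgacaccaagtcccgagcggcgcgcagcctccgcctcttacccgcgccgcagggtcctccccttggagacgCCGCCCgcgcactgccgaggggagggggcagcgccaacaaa
Col4a2: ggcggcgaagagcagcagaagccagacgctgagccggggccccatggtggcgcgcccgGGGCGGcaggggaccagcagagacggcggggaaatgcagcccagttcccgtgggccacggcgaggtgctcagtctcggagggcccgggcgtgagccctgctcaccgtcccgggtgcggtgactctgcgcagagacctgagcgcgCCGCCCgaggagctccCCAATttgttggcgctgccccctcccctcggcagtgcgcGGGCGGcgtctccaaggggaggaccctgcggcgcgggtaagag
The starts used for these windows, 11312826 for Col4a1 and 11312805 for Col4a2, are 21 bases apart on opposite strands, so the transcribed stretches overlap. The RefSeq gene table places the outer end of Col4a1 at 11312889, another start than that of the window. The windows share 78 bases. The Col4a1 window holds 1 CCAAT and 1 GGGCGG match, and the Col4a2 window 1 CCAAT and 3 GGGCGG matches. In all, 1 GGGCGG match lies in the shared bases and is read on opposite strands.

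The minor type IV chains, which replace the common ones in basement membranes of organs such as kidney, did not share a direction. Col4a4 (1445328_at) had 169.7 and 389 in p57-/- samples, against 297 and 569 in p57+/+ samples. Its difference of -0.68 had an SE of 0.40 (limma adjusted p = 0.706), and the groups overlapped because both experiment 2 arrays were brighter than the experiment 1 array of the same genotype. Within experiments the values were -0.81 and -0.55, and its other probe set gave -0.40. Col4a3, its neighbour on chromosome 1, had no Present call.

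Col4a5, on chromosome X, had 916 and 1149.6 in p57-/- samples, against 838 and 824 in p57+/+ samples. Both p57-/- arrays were above, by 0.30 on average (SE 0.16, limma adjusted p = 0.681), with 0.13 and 0.48 in the experiments. Its X-chromosome neighbour Col4a6 had 124 and 153 in p57-/- samples, both Present, against 161 and 78.2 in p57+/+ samples, both Absent. These overlap, and its difference of 0.29 (SE 0.38, limma adjusted p = 0.875) turned between experiments (-0.38 and 0.97), so no direction is given. The sex-linked genes differed between arrays. Xist, the RNA of the inactive X, had 7889 and 6412 in p57-/- samples, against 12199 and 86.7 in p57+/+ samples. The Y-linked Eif2s3y had 966 and 904 in p57-/- samples, against 2.56 and 1734 in p57+/+ samples. Both genes were thus bright in both p57-/- samples, while each p57+/+ sample was bright for 1 of them. These Xist signals are of its brightest probe set, which was called Present on all 4 arrays. The other tested Xist probe sets were Absent on the p57+/+ array of experiment 2, at 6.29 and 4.84. On the remaining arrays they were Present. The part of these sex-linked differences in the Col4a5 and Col4a6 values was not tested. Col8a2, a short-chain network collagen, had 429 and 423 in p57-/- samples, against 474 and 428 in p57+/+ samples, a difference of -0.08 (SE 0.18, limma adjusted p = 0.93).

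Among the FACIT genes, Col14a1 had the clearest separation. Type XIV collagen coats fibres in fetal connective tissue. Probe set 1427168_a_at had 7806 and 8282 in p57-/- samples, against 6839 and 7086 in p57+/+ samples, and 1428455_at had 1193 and 1394.5 in p57-/- samples, against 957 and 1065 in p57+/+ samples. With both probe sets every p57-/- array was above every p57+/+ array. The differences were 0.21 (SE 0.11, limma adjusted p = 0.679) and 0.35 (SE 0.15, limma adjusted p = 0.642), and the brighter probe set gave 0.19 and 0.23 in the experiments.

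Col16a1, a FACIT chain found near fibres and filaments, had 535.0 and 658 in p57-/- samples, against 446 and 617 in p57+/+ samples, a difference of 0.18 (SE 0.21) that was positive in both experiments (0.26 and 0.09) with overlapping groups. Col9a3 had 75.1 and 69.0 in p57-/- samples, against 72.9 and 40.7 in p57+/+ samples, and its 0.40 (SE 0.45) came mostly from experiment 2 (0.76, against 0.04 in experiment 1). Col9a2, which joins the same collagen molecule in cartilage, had 153 and 129 in p57-/- samples, against 123 and 158 in p57+/+ samples, a difference of 0.01. Col12a1, a fibre-bound collagen of tendon and fascia, had 546 and 524 in p57-/- samples, against 549 and 507 in p57+/+ samples, a difference of 0.02 that turned to -0.05 with the mean of its probe sets. Of these 4 genes only Col16a1 and Col9a3 kept 1 sign in both experiments.

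Type VI collagen joins 3 different chains, mostly those of Col6a1, Col6a2 and Col6a3, into 1 molecule. Col6a1 had 2429.9 and 2036 in p57-/- samples, against 1625 and 1938 in p57+/+ samples, a difference of 0.33 (SE 0.15, limma adjusted p = 0.647). Col6a2 (1452250_a_at) had 4404 and 4393 in p57-/- samples, against 3427 and 3924 in p57+/+ samples, a difference of 0.26 (SE 0.12, limma adjusted p = 0.653). For both, the p57-/- arrays lay above the p57+/+ arrays, and the gap was wider in experiment 1 (0.58 and 0.36 for Col6a1 and Col6a2) than in experiment 2 (0.07 and 0.16). Col6a3 had 4193 and 3344 in p57-/- samples, against 3500.1 and 3366 in p57+/+ samples, and differed by 0.13 (SE 0.14) with overlap and with signs that turned (0.26 and -0.01). The other Col6a2 probe set, 1426947_x_at, gave 0.06 with overlap (0.36 and -0.25). Col6a1 and Col6a2 are neighbours on chromosome 10.

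Col6a5, an alternative chain of type VI collagen, was near the bottom of the signal range. It had 28.4 and 31.3 in p57-/- samples, both Present, against 1.88 and 5.78 in p57+/+ samples, both Absent (limma adjusted p = 0.642). With the p57+/+ arrays taken at the lowest signal called Present for any probe set, the fold was 2.16. That signal is not a detection limit of this probe set, so no lower bound is given. Col6a5 entered the test through the genotype in which it is higher. With signals below 32 set to 32, its difference was 0.0. The fitted difference of 3.18 rests on signals below the lowest Present signal and is not a measured fold.

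Of the other collagens, Col18a1 encodes a basement membrane collagen whose end is released as endostatin. Probe set 1418237_s_at had 4513.5 and 4373 in p57-/- samples, against 3449.7 and 3898 in p57+/+ samples, and 1426955_at had 4065 and 4056 in p57-/- samples, against 3426 and 3986.5 in p57+/+ samples. With both, the p57-/- arrays were above, by 0.28 (SE 0.12, limma adjusted p = 0.642) and 0.14 (SE 0.13, limma adjusted p = 0.812), and the brighter gave 0.39 and 0.17 in the experiments. The sign is opposite to that of Col4a1 and Col4a2, whose chains also lie in basement membranes.

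Col25a1, a membrane-spanning collagen known from neurons and developing muscle, had 518 and 512 in p57-/- samples, against 454 and 345 in p57+/+ samples. The difference was 0.38 (SE 0.20, limma adjusted p = 0.672), with 0.19 and 0.57 in the experiments and no overlap. Col7a1, the anchoring fibril collagen of skin, had 109 and 151 in p57-/- samples, against 116 and 59.5 in p57+/+ samples, a difference of 0.63 (SE 0.40) with signs that turned between experiments (-0.09 and 1.34). Col13a1, a membrane-spanning collagen, was Present on 3 arrays, at 309 and 207 in p57-/- samples, against 227 and 257 in p57+/+ samples, a difference of 0.07.

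Of the 28 tested genes, 12 had several tested probe sets, 26 in all. In 10 of the 12, all probe sets of the gene gave 1 direction, and in Col1a2 and Col12a1 they disagreed. Only in 3 genes, Col5a2, Col14a1 and Col18a1, did every tested probe set separate the genotypes without overlap. All 3 were higher in p57-/- samples, and 5.33% of all 5005 genes with several tested probe sets were higher in this way.

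**Figure D3:**
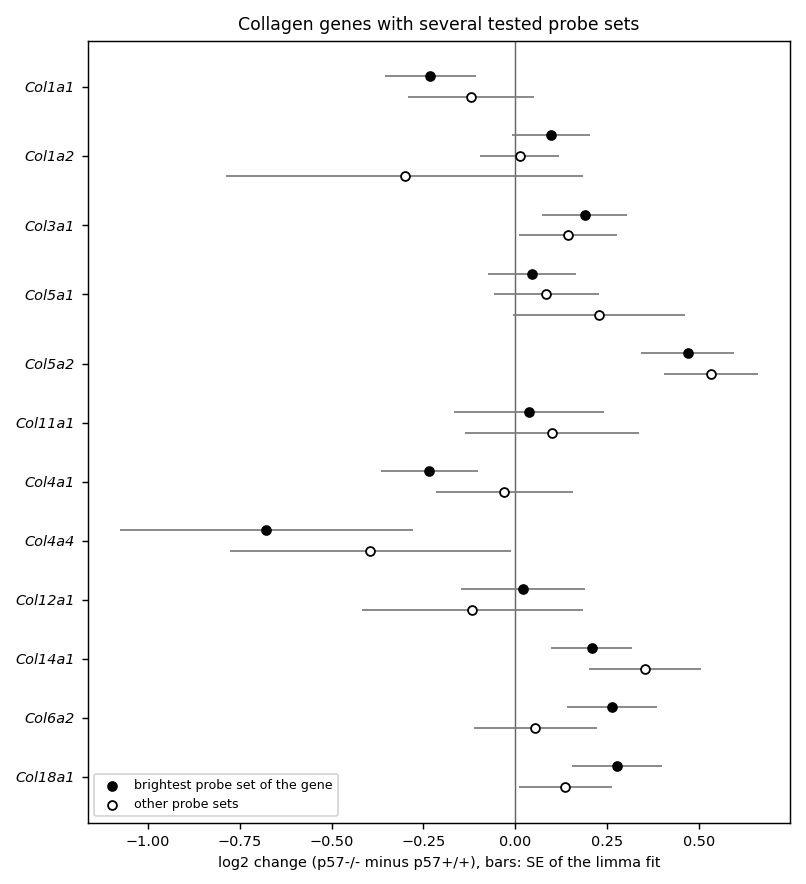
Log2 change (p57-/- minus p57+/+) of each tested probe set of the 12 collagen genes with several, with bars for the SE of the limma fit. Filled points are the brightest probe set of a gene and open points its others. The 2 Col5a2 points (0.47 and 0.53) lie farthest to the right.

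Chains that meet in 1 molecule or fibre were compared through the log2 ratio of their signals on each array, whose level has no meaning between probe sets but whose difference between genotypes does. With 2 arrays per genotype an exact two-sided permutation test cannot go below p = 0.333, and 6 pairs were computed. Each ratio uses the brightest tested probe set of a gene. The Col1a1 to Col1a2 ratio was -3.44 and -3.36 in p57-/- samples, against -3.0 and -3.15 in p57+/+ samples, a difference of -0.33 (exact permutation p = 0.333). It depends on the probe sets. With the mean of all tested probe sets, the change was -0.18 for Col1a1 and -0.06 for Col1a2, against -0.23 and 0.10 with the brightest. The Col5a2 to Col5a1 ratio was 1.02 and 0.71 in p57-/- samples, against 0.54 and 0.34 in p57+/+ samples, a difference of 0.42 (exact permutation p = 0.333). Neither pair overlapped between genotypes. The ratio of Col5a2 to Col3a1 differed by 0.28, Col6a1 to Col6a3 by 0.20 and Col4a2 to Col4a1 by 0.07. All were without overlap (exact permutation p = 0.333 each), though Col4a2 to Col4a1 differed by only 0.01 in experiment 2. The share of other gene pairs without overlap was not computed, so these separations are not read as a result. Col5a2 and Col6a1 each enter more than 1 pair. The ratio of Col6a1 to Col6a2 differed by 0.06 with overlap (exact permutation p = 1.0). Adjusted over the 6 pairs by Benjamini-Hochberg, the lowest exact permutation p was 0.4.

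Collagen chains are hydroxylated, glycosylated and folded in the endoplasmic reticulum before secretion. Of 23 listed enzymes and chaperones of this step, 19 were tested. In p57-/- samples 9 were higher and 2 lower in both experiments, beside 29.6% and 26.7% of all genes tested. Of the 19 genes, 0 passed the test. Their median difference was 0.10 (0.19 in experiment 1 and 0.005 in experiment 2), beside 0.02 over all genes tested. Plod2, a lysyl hydroxylase that prepares cross-links, had 799 and 415 in p57-/- samples, against 387 and 302 in p57+/+ samples, a difference of 0.75 (SE 0.29, limma adjusted p = 0.606). P4ha1, a prolyl hydroxylase subunit, differed by 0.43 (SE 0.26), mostly in experiment 1 (0.81, against 0.06 in experiment 2). P3h4, a partner of the lysyl and prolyl hydroxylases, had 669.5 and 658 in p57-/- samples, against 437 and 572 in p57+/+ samples, a difference of 0.41 (SE 0.19). Tmem38b, an ion channel of the endoplasmic reticulum, differed by 0.26 (SE 0.17), with 3 of its 4 probe sets in this direction.

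The genes of this list lower in both experiments were Plod1 and Fkbp14, while P3h3, a prolyl hydroxylase, differed by -0.32 with signs that turned (0.19 and -0.84). Plod1, a lysyl hydroxylase of the helix, had 611 and 627 in p57-/- samples, against 864 and 1067 in p57+/+ samples, a difference of -0.63 (SE 0.17, limma adjusted p = 0.549), but its other tested probe set went the other way. Fkbp14, a prolyl isomerase, differed by -0.24 (SE 0.16). Serpinh1, the collagen chaperone HSP47, had 2864.5 and 2947.5 in p57-/- samples, against 2809 and 2704 in p57+/+ samples, a difference of 0.08 (SE 0.12).

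Outside the cell, procollagen is trimmed and then cross-linked into fibres. Of 14 listed genes of this step 8 were tested. In p57-/- samples 1 was higher and 4 were lower in both experiments, beside 29.6% and 26.7% of all genes tested. Of the 8 genes, 0 passed the test. The median was -0.13, with 0.05 in experiment 1 and -0.31 in experiment 2. Bmp1, which cuts off the end propeptide of fibrillar procollagens, had 547 and 555 in p57-/- samples, against 742 and 1133 in p57+/+ samples. The difference was -0.74 (SE 0.21, limma adjusted p = 0.549), with -0.44 and -1.03 in the experiments, and both of its probe sets were lower. Its enhancer Pcolce had 2241.5 and 2599 in p57-/- samples, against 2862.5 and 2808 in p57+/+ samples, a difference of -0.23 (SE 0.13). Pcolce2, a related enhancer, had 1225 and 1231 in p57-/- samples, against 1442.5 and 1743 in p57+/+ samples, a difference of -0.37 (SE 0.15). The p57-/- arrays were below the p57+/+ arrays for these 3 genes and for Loxl1, a cross-linking enzyme (-0.32, SE 0.19), 4 of the 8 genes, beside 19.0% of all genes tested. Loxl3 was the 1 higher gene (0.07, SE 0.27), and Lox, the main lysyl oxidase, went in opposite directions (0.95 and -0.11).

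Of 10 listed collagen receptors 6 were tested, and 0 passed the test. Ddr1, a receptor kinase of epithelial cells that binds collagen, had 3054 and 2219.5 in p57-/- samples, against 2073 and 1610.1 in p57+/+ samples, a difference of 0.51 (SE 0.18, limma adjusted p = 0.58) that 3 of its 5 probe sets shared. Itgb1, the beta chain of collagen-binding integrins, differed by 0.10 (SE 0.12). Lair1, an inhibitory receptor of immune cells, differed by -0.58 (SE 0.34) and Mrc2, which takes up collagen fragments, by -0.13 (SE 0.21). The list had as many genes higher as lower in both experiments, 2 each, beside 29.6% and 26.7% of all genes tested. Its median was 0.02.

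**Figure D4:**
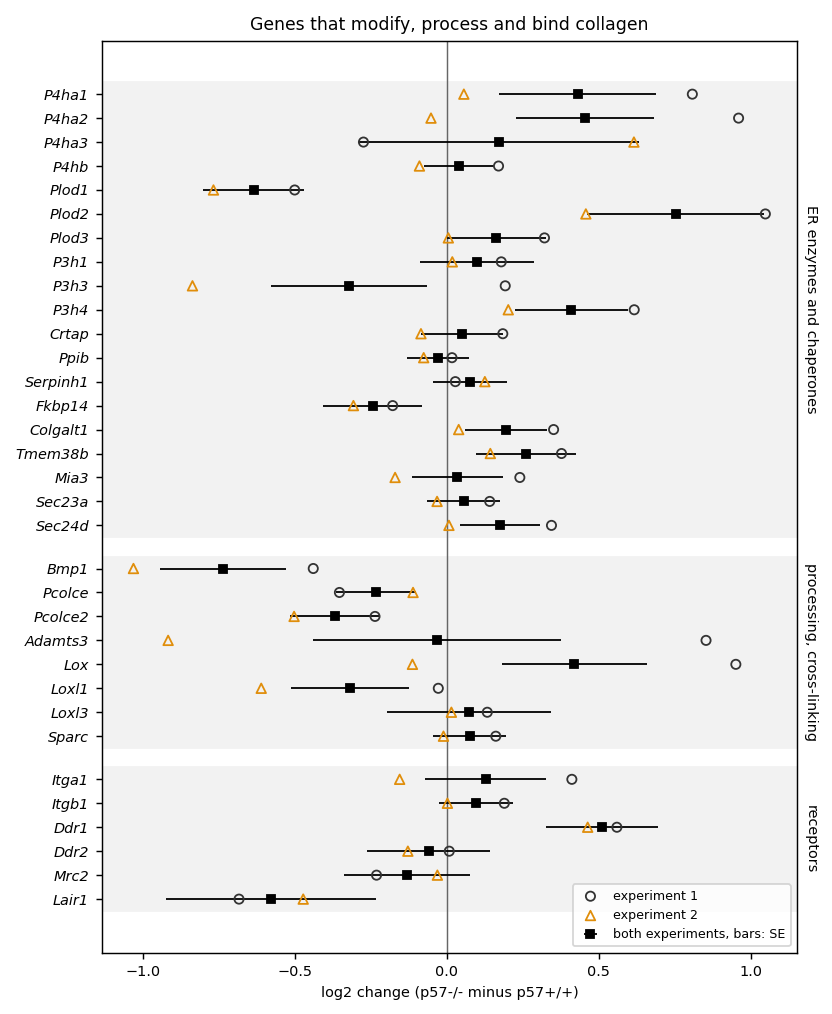
Log2 change (p57-/- minus p57+/+) of the tested genes that modify, process or bind collagen, with black squares and SE bars for both experiments together, circles for experiment 1 and triangles for experiment 2. Bmp1 (-0.74) and Plod1 (-0.63) lie farthest to the left, and Plod2 (0.75) farthest to the right.

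The median of stellate and submesothelial markers had the sign of the collagen median, as had the granulocyte and endothelial medians, among others. With their brightest probe sets, the mesenchymal chains Col1a2 and Col3a1 were higher in both experiments and Col1a1 was lower. Of 12 listed markers of stellate and submesothelial cells 11 were tested, 7 were higher and 1 was lower in p57-/- samples in both experiments, beside 29.6% and 26.7% of all genes tested, and 0 passed the test. Their median was 0.25, with 0.30 in experiment 1 and 0.12 in experiment 2. Their summed signal was 45827 and 38370 in p57-/- samples, against 32424 and 35329 in p57+/+ samples. Dcn, a proteoglycan that binds collagen fibres, had 14270 and 10283 in p57-/- samples, against 7910 and 8930 in p57+/+ samples, while the lower gene Rgs5, a pericyte regulator of G proteins, had 79.3 and 41.8 in p57-/- samples, against 104 and 114 in p57+/+ samples. Des, the intermediate filament of stellate cells, had no Present call among probe sets with 1 symbol. Both this list and the collagens had the larger median in experiment 1, as had all genes tested (0.03 and -0.005). The hepatocyte (0.18 and -0.19), macrophage (0.23 and -0.19) and endothelial lists (0.47 and -0.12) did so too. The erythroid and skeletal muscle lists had the lower median in experiment 1. This trait is thus not particular to these cells, and their part in the collagen values was not tested.

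The 12 mesothelial markers were all Present on all 4 arrays, with a median of 0.035. Of these, 5 were higher and 5 lower in both experiments, beside 29.6% and 26.7% of all genes tested. All 9 tested erythroid markers were lower in p57-/- samples in both experiments, beside 26.7% of all genes tested. The erythroid median was -0.51 (-0.74 and -0.27). Summed signals were 68709 and 91232 in p57-/- samples, against 101006.8 and 107633.2 in p57+/+ samples. The median was 0.10 for granulocyte markers. Of these 8 genes, 6 were higher and 0 lower in both experiments, beside 29.6% and 26.7% of all genes tested. For endothelial markers (8) the median was 0.16, with 0.47 in experiment 1 and -0.12 in experiment 2. It was 0.02 for macrophage (8), 0.01 for hepatocyte (10) and 0.05 for smooth muscle markers (4). Pecam1, an endothelial adhesion molecule, had no Present call, and neither had the haemoglobin gene Hba-a1. Only probe sets with 1 symbol were looked up, which leaves out 932 with several. These 2 genes are therefore not shown to be undetected. The part of these cells in the collagen values was not tested.

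Markers of neighbouring tissues that make much collagen were mostly not tested. Of 7 cartilage markers 2 were tested. Comp, a cartilage and tendon matrix protein, had 1515 and 526 in p57-/- samples, against 155 and 321 in p57+/+ samples, a difference of 2.0 (SE 0.46, limma adjusted p = 0.519). The defining genes Acan, Matn1, Matn3, Hapln1 and Cnmd had at most 1 Present call, and Col2a1 none. Bone had 2 tested markers (median -0.25) and skin epithelium 4 (median -0.46). Skeletal muscle had 1, Mylpf, with 218 and 242 in p57-/- samples, against 1222 and 299 in p57+/+ samples. The part of these tissues in the collagen values was not tested.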

How the data were processed

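RNA from 2 p57-/- and 2 p57+/+ samples was labelled with biotin by a 3' priming kit, starting from 250 ng, per the labels' protocols. The authors deposited a MAS5 signal intensity per probe set, on a linear scale, and a detection p-value with its call, per the file headers. The MAS5 name comes from the submitters' processing notes, and the sources used here do not give its version, the scanner settings or a genome build. Scaling every array to 1 trimmed mean hides a change in total RNA, and dim signals are noisy on the log2 scale.

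From these, signals were log2 transformed with no pseudocount and no further normalization. Control probe sets (64 of 45101) were left out, and 22800 probe sets Present on at least 2 arrays were tested in limma 3.58.1 (R version 4.3.3), by lmFit without a block and eBayes with its trend option, with Benjamini-Hochberg adjustment and a threshold of 0.05. Where a gene had several tested probe sets, the one of highest mean log2 signal stood for it. Each tested collagen gene is named. Signals on all arrays are given for Col1a1, Col1a2 and Col3a1, and for up to 4 genes per direction and class (likewise per pathway list) with the largest difference of 1 sign in both experiments; further signals were added after their values were seen. Members, classes, the pairs of chains, the 3 pathway lists and the 12 marker lists were chosen with earlier results of these data known. Gene names came from the platform annotation and promoters from RefSeq (GRCm38.p6). Same-numbered samples did not deviate together from their group means (r = 0.005 across tested probe sets), so the experiment named in the titles was not used as a block in the main fit. Alternatives changed the block, normalization, filter, floor on dim signals, variance model, source of the values, probe set rule and the arrays used.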

Additional observations from a re-analysis of the deposited data

How the results depend on the processing

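No collagen probe set passed the limma threshold under any of the alternatives, in either direction (0 higher and 0 lower in each). For the brightest Col5a2 probe set, the difference was 0.59 without p57-/- replicate 2. With the experiment as a replicate block, the limma adjusted p of that probe set was 0.187. The values per gene in this section cover the brightest probe set, or the mean of all, and not each other probe set. Over all probe sets the block gave 10 called higher and 20 lower, against 0 and 1 without it. The titles name a shared experiment, but samples of an experiment did not deviate together (r = 0.005). Leaving out 1 array in turn gave 1 to 98 called higher and 1 to 123 lower, the highest counts coming without p57-/- replicate 2, where the lone sample is assumed to vary like the other genotype. Requiring a Present call on all 4 arrays gave 0 lower, since Cdkn1c then leaves the test. The median over collagen genes was 0.15 for all 28 tested, 0.09 with no detection filter (42 genes), 0.13 after quantile normalization and 0.071 (without p57+/+ replicate 1) to 0.224 (without p57-/- replicate 1) with 1 array left out.

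The block, the filter on calls, the variance model and the source of the values leave a probe set's difference as it is. Only normalization, the floor, the mean of probe sets and leaving out an array could turn a sign. Where the genotypes do not overlap, leaving out 1 array cannot turn it. Of the 28 genes, 15 kept their direction in every alternative that gave a value. The share of all genes that do so was not computed. Of the 15, only Col4a4, Col7a1 and Col8a2 overlapped, so for the others leaving out an array was no test of direction. Col24a1 entered the test through 1 genotype, and the sign of Col7a1 turned between experiments. The 15 were Col1a1, Col3a1, Col5a2, Col24a1, Col4a1, Col4a2, Col4a4, Col4a5, Col8a2, Col14a1, Col6a1, Col6a2, Col7a1, Col18a1 and Col25a1. Of these, Col1a1, Col5a2, Col14a1 and Col18a1 stayed within 1.5 times their value whichever array was left out, and the other 11 moved by more: Col3a1 (0.063 to 0.315), Col24a1 (0.307 to 1.077), Col4a1 (-0.314 to -0.155), Col4a2 (-0.274 to -0.055), Col4a4 (-1.277 to -0.079), Col4a5 (0.14 to 0.468), Col8a2 (-0.155 to -0.007), Col6a1 (0.198 to 0.454), Col6a2 (0.165 to 0.36), Col7a1 (0.147 to 1.107) and Col25a1 (0.183 to 0.577). With the mean of all probe sets of a gene, Col1a2 turned to -0.064 and Col12a1 to -0.048. With signals below 32 set to 32, Col6a5 became 0.0 because all 4 of its signals lie under that floor. Without 1 array in turn, the difference ranged from -0.212 to 0.287 for Col11a1, -0.036 to 0.079 for Col12a1, -0.225 to 0.354 for Col13a1 and -0.056 to 0.411 for Col16a1. It ranged from -0.078 to 0.249 for Col27a1, -0.227 to 0.815 for Col4a6, -0.014 to 0.106 for Col5a1 and -0.65 to 0.501 for Col5a3. It ranged from -0.038 to 0.289 for Col6a3, -0.172 to 0.19 for Col9a2 and -0.018 to 0.824 for Col9a3. The cause of these turns, beyond the fewer arrays, was not tested. Signals near the lowest Present signal (12.4 to 15.4 by array) and the 2 arrays per genotype limit what can be resolved, so a difference that missed the threshold is not shown to be absent.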
